A study of Mus musculus with 145 samples.

Results

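The genes described here are the mouse ribosomal protein genes, which encode the protein part of the cytoplasmic ribosome. Members were taken by name: symbols of the form Rpl or Rps with a number and at most a short ending, together with Rplp0, Rplp1, Rplp2 and Rpsa, without names marked as pseudogenes (-ps) and with a mean of at least 5 CPM (counts scaled to library size) over all libraries. Of 55416 genes in the table, 89 names fitted and 84 reached the minimum, 34 of the small and 50 of the large ribosomal subunit. Just inside the minimum was Rps4l with 6.48 CPM and just outside it Rpl32l with 2.50 CPM. The annotation calls 82 of the 84 protein coding and Rps4l and Rps3a2 pseudogenes. The other 5 names fell outside, and Rpl32l was the highest of them. All 84 passed the filter on low counts that left 18677 genes for testing.

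RNA of dorsal skin was measured in 145 mice after a single sham or ultraviolet exposure from a canopy sunbed. Exposure was sham (0 mJ/cm2) or 5, 10, 20 or 40 mJ/cm2, with collection 0, 6, 24, 48, 72 or 96 h later. Every group was skin of 1 dose or sham at 1 time, and each irradiated group was set against sham skin of the same time. There were 5 animals in 25 groups and 4 animals in 5 groups (20 mJ/cm2 at 48 h and the 4 irradiated groups at 96 h). The comparisons of several doses at a time share their sham animals. The sources used here do not give strain, sex or age. Keratinocyte genes averaged 8.02 to 9.49 log2 CPM in the sham libraries and skeletal muscle genes 9.04 to 11.4, so the dorsal skin samples held both tissues.

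Ribosomal protein genes are transcribed at high levels in growing cells, and their mRNAs begin with a run of pyrimidines, the terminal oligopyrimidine (TOP) tract. Through that tract, growth signals by way of mTOR raise or lower the translation of these mRNAs together, often with little change in their amount. Another group of genes encodes assembly factors that process ribosomal RNA and build the subunits in the nucleolus, and these are transcribed on Myc and growth signals. A few ribosomal proteins have paralogs with expression of their own. Rpl3l replaces Rpl3 in striated muscle, Rps27l is a p53 target beside Rps27, Rpl22l1 stands beside Rpl22, Rpl39l beside Rpl39, and Rpl7l1 is a relative of Rpl7 linked to the assembly of the large subunit.

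Sequences around the start sites are printed for 4 usual members, Rpl12 and 4 paralogs. These are picked examples, and the length of the run was not counted in the other members. Each run gives the 12 bases before and the 18 bases from the annotated start, 5′ to 3′ on the gene's strand, from RefSeq on GRCm38.p6, with the longest run of C and T in capitals.
Rpl15 (chr14:18270969-18270998, minus strand): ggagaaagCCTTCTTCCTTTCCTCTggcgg
Rpl13a (chr7:45128728-45128757, minus strand): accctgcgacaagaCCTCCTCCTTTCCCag
Rps6 (chr4:86857350-86857379, minus strand): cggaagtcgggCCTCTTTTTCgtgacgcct
Rps27 (chr3:90213631-90213660, minus strand): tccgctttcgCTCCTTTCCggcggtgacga
Rpl12 (chr2:32961700-32961729, plus strand): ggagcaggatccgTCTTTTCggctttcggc
Rpl22l1 (chr3:28805496-28805525, plus strand): cggcgcaagcccgTTCTCTTCCCacggctg
Rps27l (chr9:66946074-66946103, plus strand): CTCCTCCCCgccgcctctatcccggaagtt
Rpl3l (chr17:24727814-24727843, plus strand): tgttctagctctgtcatttgaCCTCTggtg
Rpl7l1 (chr17:46782639-46782668, minus strand): aggCTgcgcaagcgcagtagctgaagcacc
The longest pyrimidine run covered 17 bases in Rpl15, 14 in Rpl13a, 10 in Rps6, 9 in Rps27 and 7 in Rpl12, and in each of them it spanned the annotated start or began at or just after it. Rpl22l1, a paralog, had a run of 10 bases at the start. In Rps27l the longest run, 9 bases, lay upstream. It began at base -12, the first base printed, so it may reach further upstream. Within the printed bases the longest run was 5 bases in Rpl3l and 2 bases in Rpl7l1.

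The same letters were common over the wider set. RefSeq held a start for 62 of the 84 members and for 27025 genes in all, and the 50 bases before and 50 after each start were searched. CTTTC on the gene's strand stood in 48.39% of the members' windows and in 12.59% of all windows. On the other strand the shares were 12.9% and 11.82%. CTTTCC, which contains CTTTC, stood in 27.42% of the members' windows and 4.666% of all, and CTCTTTC, which also contains it, in 17.74% and 1.332%. CTTCC was found in 45.16% and 19.8%, and on the other strand in 33.87% and 21.96%. A match describes these letters only.

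Skin held a large and uneven amount of ribosomal protein mRNA. Over all 145 libraries the 84 genes took between 1.37% and 10.2% of the counts, with a median of 3.47%. In the 30 sham libraries the share ran from 1.37% to 4.75% with a median of 3.13%. Per kilobase of the median coding transcript, the highest mean levels were those of Rps24 (1875 CPM per kb), Rps4x (1203 CPM per kb), Rps27 (1199 CPM per kb) and Rpl10 (1168 CPM per kb). The lowest protein-coding members were the paralogs Rpl39l (15.0 CPM per kb), Rpl7l1 (45.9 CPM per kb) and Rpl3l (84.0 CPM per kb). The order moved with the length used. Per kilobase of all exons of a gene joined, Rps3a1 (1139 CPM per kb), Rps4x (716 CPM per kb) and Rpl23a (715 CPM per kb) were highest and Rps24 had 154 CPM per kb. On that scale Rpl39l (12.1 CPM per kb), Rpl7l1 (17.3 CPM per kb) and Rplp2 (47.1 CPM per kb) were the lowest coding members. Many members have processed copies in the genome, and 74 of the 84 had fractional values in at least 90% of libraries, so the counting split reads between copies and single values are uncertain. The 300 copies named -ps held a median of 0.137% of the counts.

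**Figure D1:**
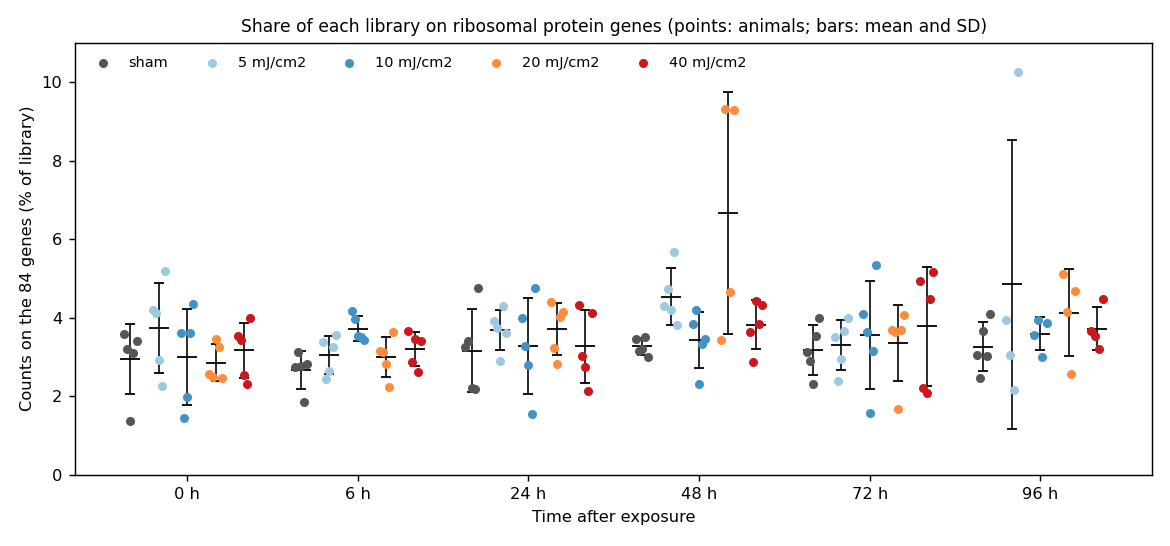
Percent of each library's counts on the 84 genes, by time (horizontal groups) and dose (colours). Points are animals and bars are mean and SD; 3 libraries stand between 9.29% and 10.2%, and the other 142 lie between 1.37% and 5.68%.

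A set of 3 libraries stood apart and touch every result in which they enter. These are replicates 2 and 4 of 20 mJ/cm2 at 48 h, with 9.31% and 9.29% of their counts on the members, and replicate 4 of 5 mJ/cm2 at 96 h with 10.2%. No other library exceeded 5.68%. All 3 have titles ending in R1 and the first is titled as a repeat. Libraries held 0.18 to 64.6 M counts (median 11.1 M), and these 3 held between 11.9 and 26.8 M. Results that rest on them are given with and without them.

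At 6 h after 40 mJ/cm2, 24 of 70 genes for ribosome biogenesis rose, 0 fell and the others did not pass the test. The median log2 fold change over the 70 was 0.78, beside 2.14% of all genes called up and a median of 0.04 over all genes. The 3 with the smallest p were Gnl2 (0.79 ± 0.12, SE), a nucleolar GTPase of the large subunit, the helicase Ddx21 (1.16 ± 0.19) and the assembly factor Rrs1 (1.05 ± 0.18). Of the 84 members, 2 were called, both up, where edgeR called 4.89% of all genes in either direction. The members' median was 0.34, and 82 of 84 values were above 0, as were 53.8% of all genes. In bulk skin, a change in the number of cells of a type and a change in the RNA per cell cannot be told apart.

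Rpl7l1 was the member with the clearest difference. The 5 sham animals at 6 h had 52.7, 64.2, 51.1, 43.7 and 51.8 CPM and the 5 animals given 40 mJ/cm2 had 89.3, 117, 89.1, 81.9 and 107 CPM. Every irradiated animal stood above every sham animal. The log2 fold change was 0.90 ± 0.19 with an edgeR adjusted p of 0.00537, and it was called without each of the 10 animals in turn. At 5, 10 and 20 mJ/cm2, against the same sham animals, Rpl7l1 had log2 fold changes of 0.23, 0.19 and 0.48, none of them called. Its partner Rpl7 had 831 ± 134 CPM (SD, n = 5) in sham and 915 ± 145 CPM after 40 mJ/cm2, groups that overlapped, with a log2 fold change of 0.16 ± 0.16 and an edgeR adjusted p of 0.68.

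At later times Rpl7l1 did not pass the test. At 24 h sham animals had 47.9, 49.4, 41.4, 47.1 and 53.3 CPM and animals given 40 mJ/cm2 had 71.6, 63.4, 58.3, 48.5 and 97.2 CPM. Replicate 4 of the irradiated group lay within the sham range and the others above it. The log2 fold change was 0.51 ± 0.17 with an edgeR adjusted p of 0.0985, while DESeq2 gave an adjusted p of 0.0234. It was 0.31 ± 0.19 at 48 h and 0.43 ± 0.21 at 72 h, and -0.06 ± 0.28 at 96 h. The change of its 40 mJ/cm2 effect from 6 to 48 h was -0.56 ± 0.26 with an edgeR adjusted p of 0.339.

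Rpl12, which lies in the stalk base of the large subunit, was the other call at 6 h. Sham animals had 334, 344, 334, 252 and 334 CPM, and animals given 40 mJ/cm2 had 531, 425, 480, 386 and 447 CPM. The groups did not overlap, though the lowest irradiated value stood close to the highest sham value. The log2 fold change was 0.53 ± 0.15 with an edgeR adjusted p of 0.0378, and the call was lost without any 1 of 9 of the 10 animals (adjusted p up to 0.121). At 10 mJ/cm2 the 5 animals had 509, 493, 461, 439 and 332 CPM, a log2 fold change of 0.52 ± 0.15 that edgeR did not call (adjusted p = 0.503) and DESeq2 did (adjusted p = 0.0428). The library of replicate 5 at 10 mJ/cm2 held only 0.18 M counts, the fewest of all.

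Few of the other translation genes were called at 6 h after 40 mJ/cm2, where 2.14% of all genes were called up. The median over all genes was 0.04, and the medians given next lay above it. The 4 ribosome components that the naming rule leaves out had 0 calls and a median of 0.50, the 78 mitochondrial ribosomal proteins 0 calls and a median of 0.28, and 18 translation factors with known TOP mRNAs 0 calls and a median of 0.20. Of 26 other initiation factors 1 rose, Eif3b (0.83 ± 0.24), and of 29 growth and stress regulators of translation 2 rose, the stress factor Atf4 (0.52 ± 0.13) and the mTOR inhibitor Sesn2 (1.33 ± 0.35). Reference genes often used to scale skin data were not called: at 6 h Rplp0 had 0.54 ± 0.37, Rpl13a 0.47 ± 0.23, Rps18 0.44 ± 0.33, Rpl19 0.55 ± 0.29 and Rpl32 0.32 ± 0.19. All 5 estimates were above 0 and larger than their standard errors.

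**Figure D2:**
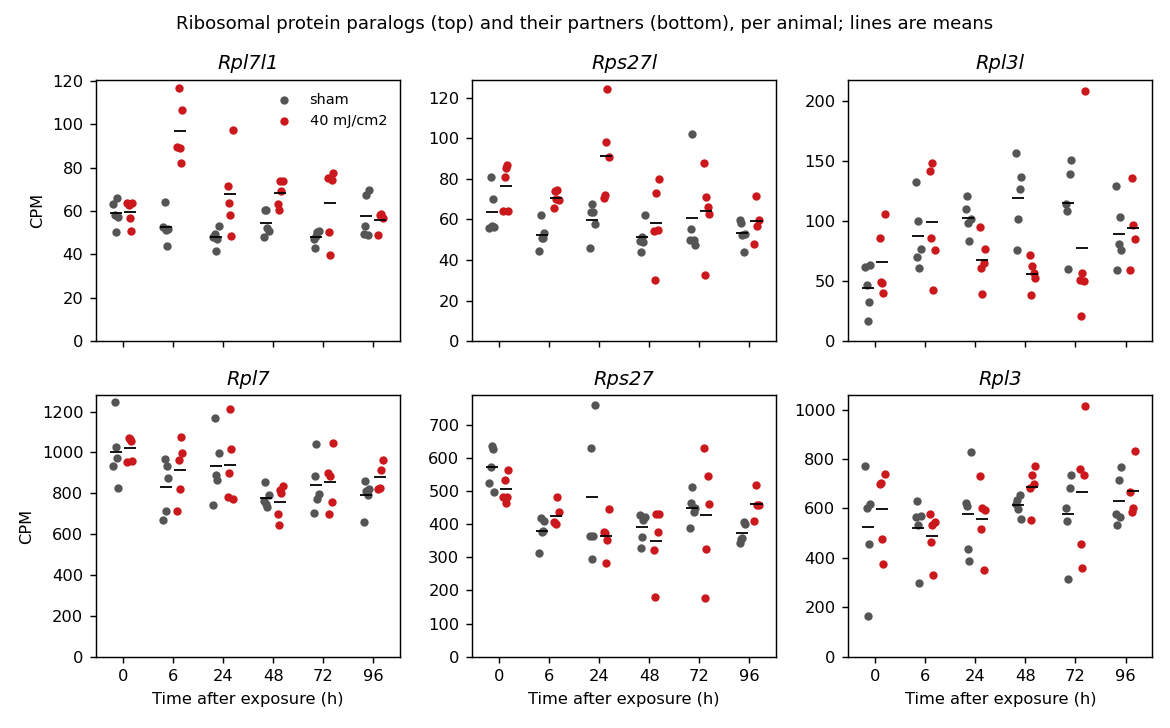
CPM per animal of Rpl7l1, Rps27l and Rpl3l (top) and their partners Rpl7, Rps27 and Rpl3 (bottom) by time in hours, in sham (grey) and 40 mJ/cm2 animals (red), with lines at the means. The groups of Rpl7l1 at 6 h, of Rps27l at 6 and 24 h and of Rpl3l at 48 h do not overlap, while the groups of their partners overlap at those times.

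At 24 h after 40 mJ/cm2 the p53 target Rps27l was the 1 member called, against 2.92% of all genes. Sham animals had 45.9, 63.5, 67.8, 63.9 and 57.8 CPM and irradiated animals 70.4, 72.0, 98.2, 124 and 90.7 CPM. All irradiated animals were above all sham animals, by a small margin for replicates 1 and 2. The log2 fold change was 0.60 ± 0.14 with an edgeR adjusted p of 0.0224, and the call was lost in 4 of 10 fits without 1 animal (sham replicates 1, 4 and 5 and irradiated replicate 3; adjusted p up to 0.0684). With the muscle gene level as a further covariate the value was 0.42 and the adjusted p 0.0588. Rps27 had sham values of 365, 628, 295, 363 and 759 CPM and irradiated values of 376, 373, 282, 353 and 444 CPM, which overlap, and its log2 fold change was -0.39 ± 0.25.

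Some of the p53 genes followed beside Rps27l were called at these times. Of 7 genes for p53 and its ribosomal control, 3 rose at 6 h, where 2.14% of all genes rose. They were the cell cycle inhibitor Cdkn1a (1.53 ± 0.24), the RNA-binding protein gene Zmat3 (1.00 ± 0.17) and Mdm2 (0.89 ± 0.20), whose protein binds free ribosomal proteins. At 24 h 2 rose, Zmat3 (1.11 ± 0.15) and Cdkn1a (1.40 ± 0.33), where 1.65% of all genes rose. At 48 h Cdkn1a (0.77 ± 0.17) and Zmat3 (0.59 ± 0.15) rose again, where 7.73% of all genes were called in either direction. Of the genes not called, Mdm4 had -0.13, -0.08 and -0.20 at 6, 24 and 48 h, and Ccng1 had 0.11, -0.10 and -0.54. Trp53 and Phlda3 were above 0 at these times, as was Mdm2 at 24 and 48 h. At 6 h Rps27l itself had 70.8 ± 3.67 CPM (SD, n = 5) after 40 mJ/cm2 and 52.3 ± 6.35 CPM in sham, groups that did not overlap. Its log2 fold change there was 0.46 ± 0.17 with an edgeR adjusted p of 0.148. After 20 mJ/cm2 it was 0.65 ± 0.17, with an adjusted p of 0.113 by edgeR and 0.0342 by DESeq2.

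Of the 70 ribosome biogenesis genes, 15 rose at 24 h after 40 mJ/cm2, 0 fell and the others did not pass the test, with a median of 0.58, where 1.65% of all genes rose. The 3 with the smallest p were Heatr1 (0.93 ± 0.16), Utp20 (0.86 ± 0.15) and Ddx21 (0.87 ± 0.19), which act in the processing of ribosomal RNA. The median of the members was 0.00, with Rps27l as the 1 call. At 48, 72 and 96 h after 40 mJ/cm2 0 biogenesis genes were called, with medians of 0.32, 0.34 and -0.12. After 20 mJ/cm2 at 6 h, where 0.161% of all genes rose, 1 biogenesis gene was called up, Gnl2 (0.56 ± 0.12), with a median of 0.51. No list was tested against the others, so a difference between biogenesis genes and members was not tested.

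At 48 h after 40 mJ/cm2 the muscle paralog Rpl3l was the 1 member called, against 7.73% of all genes, and it fell. Sham animals had 157, 76.0, 101, 126 and 137 CPM and irradiated animals 71.2, 38.4, 62.9, 56.4 and 52.1 CPM. Every irradiated animal lay below every sham animal. The log2 fold change was -1.09 ± 0.29 with an edgeR adjusted p of 0.0204, and the call was lost without sham replicate 1 or 5 or irradiated replicate 2 or 5 (adjusted p up to 0.0738). Rpl3, the general form, had 617, 633, 596, 656 and 559 CPM in sham animals and 682, 552, 735, 698 and 771 CPM in irradiated animals, which overlap, with a log2 fold change of 0.16 ± 0.27.

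Skeletal muscle genes moved with Rpl3l. Of 21 muscle genes 14 fell at 48 h and 0 rose, with a median of -1.11, where 3.76% of all genes fell. Their mean log2 CPM was 11.4, 10.6, 10.8, 11.1 and 11.3 in the sham animals and 10.3, 9.54, 10.1, 9.94 and 9.77 in the irradiated animals, so the groups did not overlap in muscle gene level either. With that level as a covariate the log2 fold change of Rpl3l was 0.00 with an edgeR adjusted p of 1. Since the level did not overlap between the groups, this fit cannot tell dose and muscle gene level apart. Whether the amount of muscle or its RNA per cell differed was not tested. With the same covariate 17 of 84 members were called at 48 h and 13 of 84 at 24 h, all up, in place of 1 at each time. Calls over all genes rose too, from 7.73% to 19.9% at 48 h and from 2.92% to 15.7% at 24 h. The rise in calls was therefore not limited to the members. The member medians at 48 and 24 h were 0.53 and 0.47 with the covariate, in place of 0.07 and 0.00. At 6 h, where muscle genes had 0 calls and a median of 0.16, Rpl7l1 had 0.89 with the covariate and Rpl12 0.51, and both were called.

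At 48 h after 20 mJ/cm2 the members stood far above sham, and the difference came with the 2 libraries of high share. edgeR called 2 members up, Rpl13a and Rpl15, where it called 0.482% of all genes. The median over the 84 was 1.15, all 84 values were above 0 (51.4% of all genes were), and 83 had an unadjusted p under 0.05, as had 21.3% of all genes. Rpl13a had 585, 363, 421, 502 and 459 CPM in sham and 597, 2109.6, 667 and 2282 CPM after irradiation, a log2 fold change of 1.56 ± 0.34 (adjusted p = 0.0344, n = 5 and 4, edgeR). Rpl15 had 382, 338, 344, 365 and 324 CPM in sham and 407, 1226, 468 and 1299 CPM after irradiation, a log2 fold change of 1.25 ± 0.27 (adjusted p = 0.0403, n = 5 and 4, edgeR). In both genes replicates 2 and 4 were about level with each other and far above all others, while replicates 1 and 3 lay just above the sham range.

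Those 2 libraries were picked by their member share, so a lower member level without them follows from the choice. Only replicates 1 and 3 of the irradiated group then remain, which limits the calls that can be made. Without the 2 libraries edgeR called 0 members (0.00535% of all genes), the median was 0.24 and 0 members had an unadjusted p under 0.05 (4.01% of all genes had). Rpl13a then had a log2 fold change of 0.43 and Rpl15 of 0.31, both with an edgeR adjusted p of 1. DESeq2 called 76 members and 5.96% of all genes with all libraries, so the count of 2 moved with the tool as well. At 96 h after 5 mJ/cm2 the difference also came with a library of high share. There the median was 0.88, edgeR called 0 members and 0% of all genes, and 41 members had an unadjusted p under 0.05 (9.53% of all genes had). Rpl13a in those 4 animals had 584, 363, 215 and 2449.7 CPM, against 465, 273, 480, 403 and 567 CPM in sham. Without the fourth animal, picked in the same way, the median was -0.11, and 2 members had an unadjusted p under 0.05 (6.41% of all genes had).

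The 3 libraries were high across nearly the whole set but not evenly. Over the sham mean of their time, 82 members were at least 1 log2 unit higher on average over the 3, and 28 at least 2. The smallest excess was that of Rpl4 (0.59), followed by Rpl3l (0.94), and the largest those of Rpl36 (2.38) and Rps14 (2.55). Short transcripts were high in general. The median excess was 1.88 for the 82 members with an annotated coding transcript, 0.64 for 2030 other coding genes with transcripts under 1000 bases, and -0.77 for 1215 with at least 5000 bases. Across the 82 members the excess had a Pearson r of -0.51 with log transcript length and 0.22 with GC content, and across 11818 other genes -0.56 and 0.40, as descriptions over genes of the same libraries.

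Some other values of the 3 libraries stood apart as well. The 4 ribosome components outside the naming rule averaged 9.77 to 10.1 log2 CPM in them and 5.48 to 9.10 in the others, and mitochondrial ribosomal proteins 5.59 to 5.92 and 2.05 to 5.33. Translation factors with known TOP mRNAs averaged 9.00 to 9.08 log2 CPM in the 3 and 7.97 to 8.84 in the others. Ribosome biogenesis genes (5.07 to 5.44 against 3.19 to 5.65 log2 CPM) lay inside the range of the others, as did the mitochondrial share of counts (1.86% to 2.35% against 1.61% to 34.8%). Keratinocyte genes (8.72 to 9.03 against 8.00 to 9.86 log2 CPM) and fibroblast genes (9.69 to 10.3 against 9.20 to 10.5) were also inside it. T cell genes (2.75 to 3.25 against -0.25 to 3.04) reached past it in 1 library. The part of transcript length, RNA quality or cell content in the high share was not tested.

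**Figure D3:**
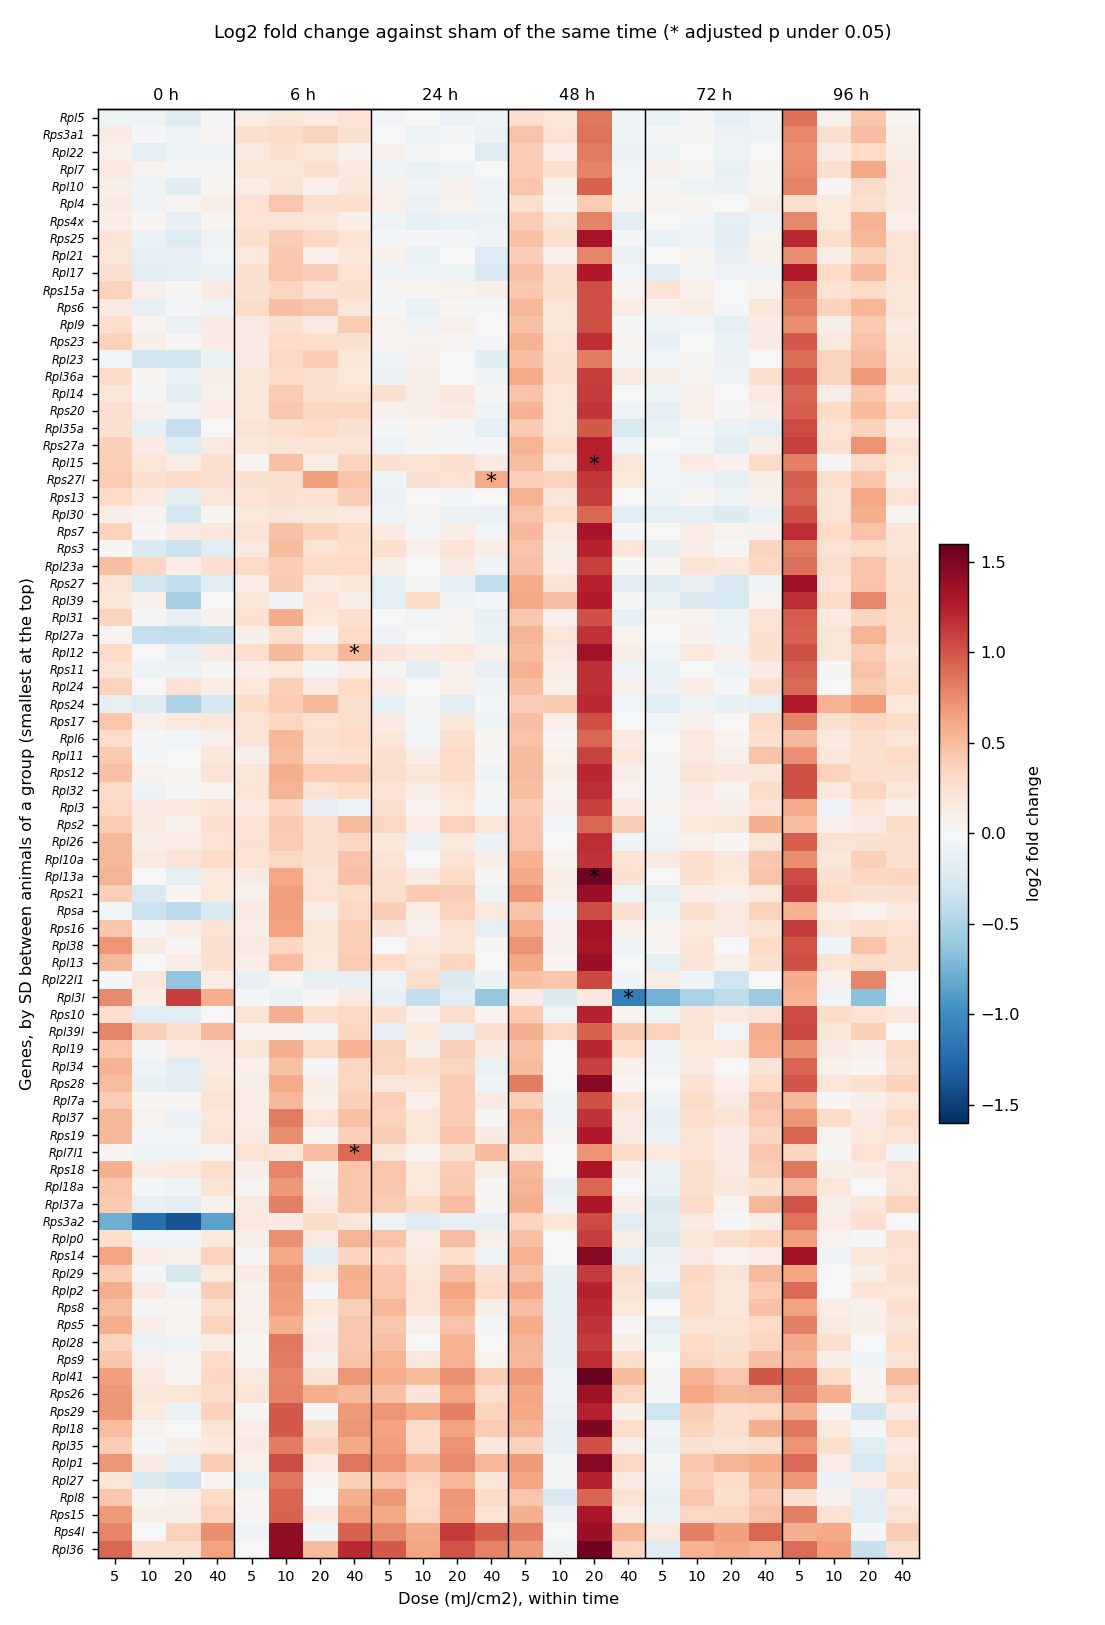
Log2 fold change of each of the 84 genes (rows, ordered by their SD between animals of a group) in each of the 24 comparisons with sham (columns, dose in mJ/cm2 within time); red is higher and blue lower than sham, and asterisks mark the 6 edgeR calls. The columns 20 mJ/cm2 at 48 h and 5 mJ/cm2 at 96 h, which hold the 3 libraries of high share, are red in all rows, with medians of 1.15 and 0.88.

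Away from those 2 comparisons, edgeR called 0 members and 0% of all genes in 6 lower-dose comparisons that had at least 78 of 84 values above 0 or at least 12 members without overlap between the groups. At 6 h after 10 mJ/cm2 the median was 0.47, 82 of 84 values were above 0 (52.1% of all genes were), and 33 members had an unadjusted p under 0.05 (8.42% of all genes did). In 12 members every irradiated animal was above every sham animal (0.594% of all genes). Among these 12 members Rps3 had a log2 fold change of 0.50 and Rpl31 of 0.59, both with an edgeR adjusted p of 0.503. Replicate 5 of this irradiated group held 0.18 M counts, the fewest of all libraries, so its values are the least certain. At 48 h after 5 mJ/cm2 the median was 0.50, all 84 values were above 0 (50.8% of all genes), 7 members had an unadjusted p under 0.05 (3.42% of all genes), and in 20 members the groups did not overlap (0.53% of all genes). The 2 high libraries, picked by their member share, enter the estimate of spread at 48 h. Leaving them out raised the 7 to 53 (5.86% of all genes), still with 0 called (0% of all genes). A smaller spread of the members without them follows from that choice. The 53 therefore cannot be compared with the share over all genes. At 96 h after 20 mJ/cm2 the groups did not overlap in 13 members (0.867% of all genes), 71 of 84 values were above 0 (53.3% of all genes) and the median was 0.29. The count with an unadjusted p under 0.05 was 0 (4.23% of all genes), or 25 without the high library of that time (5.17% of all genes). That library was picked in the same way, so the same limit holds for the 25. In the other 3 comparisons the groups overlapped in nearly all members. At 0 h after 5 mJ/cm2 the median was 0.37, with 78 of 84 values above 0 (49.5% of all genes) and 1 member without overlap (0.541% of all genes). At 6 h after 5 mJ/cm2 the median was 0.15, with 80 of 84 values above 0 (53.7% of all genes) and 0 members without overlap (0.3% of all genes). The title endings differed there. Libraries titled R1 alone had 82 of 84 values above 0 (median 0.45), and those titled R1_001 had 37 (median -0.04). At 96 h after 10 mJ/cm2 the median was 0.18, with 78 of 84 values above 0 (56.1% of all genes) and 2 members without overlap (0.294% of all genes). Here R1 alone had 43 of 84 above 0 (median 0.00) and R1_001 had 78 (median 0.35). In the same order the counts were 80 and 82 at 6 h after 10 mJ/cm2. They were 84 and 81 at 48 h after 5 mJ/cm2, and 74 and 71 at 0 h after 5 mJ/cm2. At 96 h after 20 mJ/cm2 only R1 could be fitted, with 55 above 0.

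The share of counts gives the same comparisons per animal. At 6 h it was 2.75, 3.14, 2.78, 1.86 and 2.82% in sham and 4.18, 3.96, 3.54, 3.51 and 3.44% after 10 mJ/cm2, groups that did not overlap. The value of 3.44% came from the shallowest library, with 0.18 M counts. After 40 mJ/cm2 the share was 3.67, 2.88, 3.46, 2.62 and 3.40%, which overlaps the sham range. At 48 h it was 3.47, 3.16, 3.21, 3.51 and 3.00% in sham and 4.29, 4.74, 4.18, 5.68 and 3.80% after 5 mJ/cm2, again without overlap. Mitochondrial counts were on average lower in both irradiated groups, 5.15 ± 1.58% against 7.31 ± 3.54% in sham (SD, n = 5) at 6 h and 3.81 ± 1.05% against 4.37 ± 1.07% at 48 h. Their ranges overlapped, and sham replicate 4 at 6 h had 13.5%. Counted over nuclear genes alone, the share at 6 h was 3.62% to 4.42% after 10 mJ/cm2 and 2.15% to 3.35% in sham. At 48 h the nuclear share was 3.93% to 5.88% after 5 mJ/cm2 and 3.19% to 3.65% in sham, again without overlap. Beyond these values, the part of mitochondrial counts in the shares was not tested.

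In the remaining comparisons of 40 mJ/cm2 with sham 0 members were called. At 0 h edgeR called 0% of all genes and the member median was 0.16. The members with the smallest p were Rps3a2 (-0.85 ± 0.51), Rpl39l (0.52 ± 0.32) and Rpl3l (0.58 ± 0.38), all with an adjusted p of 1. At 72 h, with 1.26% of all genes called, the median was 0.25 and the smallest p belonged to Rpl7l1, Rpl39l (0.58 ± 0.29) and Rps2 (0.57 ± 0.39). At 96 h, with 0.118% of all genes called, the median was 0.22 and the 3 were Rpl36a (0.28 ± 0.34), Rpl11 (0.31 ± 0.37) and Rps20 (0.31 ± 0.37), again with an adjusted p of 1. At unadjusted p under 0.05 the count of members was 0 at 0, 72 and 96 h, where it took in 4.45%, 11% and 4.74% of all genes. DESeq2 called 0 members at each of these times and 0.278%, 2.59% and 0.514% of all genes.

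The change of the 40 mJ/cm2 effect over time was called for 0 members. From 6 to 48 h edgeR called 1.23% of all genes, the member median was -0.26 and 3 of 84 values were above 0 (46.4% of all genes). The smallest adjusted p was that of Rpl3l (-1.24 ± 0.44, adjusted p = 0.163). From 48 to 96 h edgeR called 0.112% of all genes and the member median was 0.11. Rpl3l again had the smallest adjusted p, 0.450, with 1.09 ± 0.51. So the differences between times in Rpl7l1 and Rpl3l did not pass the test of the difference.

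The other paralogs differed from sham by less than the threshold at every time. After 40 mJ/cm2 Rpl22l1 had log2 fold changes between -0.14 and 0.12, and its partner Rpl22 between -0.21 and 0.10. Rpl39l lay between -0.01 and 0.58, and Rpl39 between -0.02 and 0.30. Rps4l, the annotated pseudogene, lay between 0.39 and 0.96 with standard errors of 0.47 to 0.99, and Rps4x, the X-linked gene of the small subunit protein, between -0.18 and 0.10.

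Between animals of the same group, members differed greatly in how much they varied. The within-group SD of log2 CPM, without the 3 high libraries, was smallest for Rpl5, Rps3a1 and Rpl22 (0.21, 0.21 and 0.22) and largest for Rpl36 (1.99), Rps15 (1.30) and Rpl8 (1.23) among coding members. Rpl36 in the 5 sham animals at 6 h had 53.6, 14.2, 36.4, 2.89 and 18.2 CPM, and after 40 mJ/cm2 125, 13.0, 128, 4.38 and 28.8 CPM. The levels differed widely within each group and the groups overlapped. Rps24, a small subunit protein gene, went the other way in 1 of these animals: sham replicate 4, lowest for Rpl36, was highest for Rps24 at 1235 CPM beside 565 to 840 CPM in the others. In that library mitochondrial genes took 13.5% of the counts, against 4.44% to 6.44% in the other sham libraries at 6 h. Its share of counts on the members, 1.86%, was the lowest of the sham libraries at 6 h.

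The spread followed the base composition of the transcript. The 29 coding members under 50% GC had a median within-group SD of 0.30, the 31 from 50% to 55% had 0.47, and the 22 from 55% had 0.84. Other coding genes in the same bands had medians of 0.50, 0.46 and 0.78. Across the 82 members GC content and SD had a Pearson r of 0.64, and across 11818 other genes 0.23. Members also moved together: each member's deviation from its group mean correlated with the mean of the others, over 142 libraries, with a median r of 0.89, and with r of at least 0.8 in 49 members. The correlation was under 0.3 in 13 members, the lowest being Rps24 (-0.40), Rpl22l1 (-0.32) and Rpl39 (-0.20), and across the 82 members it rose with GC content (r = 0.66). These are descriptions, since the members share libraries, depth and base composition.

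**Figure D4:**
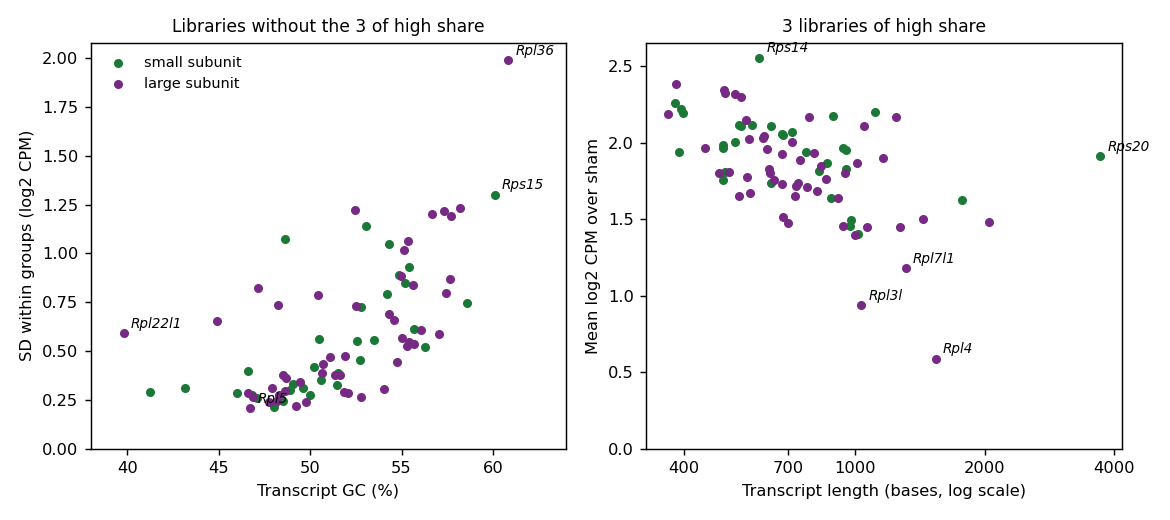
Left, within-group SD of log2 CPM against transcript GC percent in the 82 coding members without the 3 libraries of high share; right, mean excess over sham in those 3 libraries against transcript length in bases on a log axis, with points coloured by subunit. The SD rises with GC up to 1.99 for Rpl36, and the excess is lower for longer transcripts, with Rpl4 lowest at 0.59.

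Measures of the libraries moved with the members' mean level. Over deviations from group means in 142 libraries, without the 3 high ones, the mean log2 level of the members had a Pearson r of 0.98 with the 4 ribosome components outside the rule, 0.78 with short coding genes, -0.75 with the mitochondrial share, 0.66 with muscle genes, 0.59 with T cell genes, 0.52 with keratinocyte genes, 0.55 with biogenesis genes and 0.14 with cell cycle genes. The libraries share depth and preparation, and these values are given without a test. In the library with the lowest share of all, sham replicate 3 at 0 h (1.37%), mitochondrial genes took 34.8% of the counts. Counted over nuclear genes alone, its share was 2.11%, and the other 4 sham libraries of that time had 3.33% to 3.74%.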

How the data were processed

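RNA of dorsal skin was sequenced in 145 mice as stranded poly(A) libraries, per the labels' protocols. Values are the authors' deposited expected counts by gene, of which 12.6% are not whole. The submitters' processing notes name the aligner STAR 2.7.10a and the build GRCm39, with fastp 0.23.0, bcl2fastq 2.20.422 and DESeq2 1.36.1. The sources used here do not give the program behind the expected counts, the annotation or the use of strand. Symbols came from GENCODE vM21 on GRCm38 for 52083 of 55416 identifiers, and the others took 0.0906% of all counts. Depth per library was 0.18 to 64.6 M counts (median 11.1 M).

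After rounding, two-sided quasi-likelihood tests were run with edgeR 4.0.16 (R 4.3.3, TMM scaling, filterByExpr over the 30 groups). A fit for each time held the 5 doses, and the ending of the library titles (R1_001 in 71 libraries, R1 in 74) entered as covariate; the sources used here do not say what it marks. The Benjamini-Hochberg adjustment ran over all 18677 genes of a comparison, with a threshold of 0.05. Standard errors (SE) of log2 fold changes are their absolute values divided by the square root of the quasi-likelihood F statistic. Levels are CPM on TMM-scaled sizes, and log2 CPM uses a prior count of 2. Transcript length and GC content are medians over a gene's coding transcripts in GENCODE vM21. No library was a copy of another: chi-square divided by its degrees of freedom was at least 11.0 over 280 pairs within groups and at least 8.52 over 10160 pairs between groups. The labels number animals individually, so the samples are separate animals; replicate numbers follow the order of the sample list and only name an animal.

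The members and the gene lists were chosen with earlier results of these data known. Members named are, at 40 mJ/cm2, up to 5 called each way with the largest change, or the 3 with the smallest p where none was called, up to 3 called each way at lower doses and over time, the paralogs with their partners, and 5 reference genes. Of each other list up to 3 called genes with the smallest p are named. Members described for their spread, their level per kilobase, their excess in the 3 libraries of high share or their groups that did not overlap (Rps3, Rpl31) were chosen after their values were seen. Alternatives were DESeq2 1.42.0, other scalings, no low count filter, no title ending, the muscle gene level as covariate, 1 fit of all libraries, each title ending alone and each library left out.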

Additional observations from a re-analysis of the deposited data

Results flagged for a closer look

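A library far from the others of its group was looked for in 42 groups of values (the share of counts on the members in each group, and the CPM of called members in the groups compared), and 3 had one; chance gives about 1 in 20. The share of counts on the members in sham replicate 3 at 0 h was 1.37%, below the other 4 sham libraries of that time (3.10% to 3.59%). The share in replicate 3 of 20 mJ/cm2 at 72 h was 1.67%, below the other 4 (3.65% to 4.07%), and mitochondrial genes took 14.0% of its counts against 2.05% to 4.26% in the others. Rpl12 in sham replicate 4 at 6 h had 252 CPM, below the 334 to 344 CPM of the other 4 sham animals. Mitochondrial genes took 13.5% of the counts of this replicate, against 4.44% to 6.44% in the other 4. Without this animal the log2 fold change of Rpl12 after 40 mJ/cm2 was 0.44 with an edgeR adjusted p of 0.121. The 2 high libraries of 20 mJ/cm2 at 48 h stand together in a group of 4, so neither has a gap to its nearest neighbour. Replicate 4 of 5 mJ/cm2 at 96 h had 10.2% beside 2.16% to 3.93% in the other 3, but its gap to the nearest library, as a part of the group's range, stayed under Dixon's 95% critical value for 4 libraries, which was the measure used.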

How the results depend on the processing

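The counts of members called moved with the setting where the main count was small. At 6 h after 40 mJ/cm2 (2 called) the count was 1 with 1 fit of all libraries, 1 without the low count filter, 1 with plain library sizes, 0 in libraries titled R1 alone, 1 in those titled R1_001 alone, and 1 to 2 when each animal was left out. At 24 h (1 called) it was 0 with 1 fit of all libraries, 2 with DESeq2, 13 with the muscle gene level as covariate, 0 without the filter, 0 with either title ending alone, and 0 to 2 when each animal was left out. At 48 h (1 called) it was 0 with 1 fit of all libraries, 17 with the muscle covariate, 0 with either title ending alone, and 0 to 1 when each animal was left out. At 48 h after 20 mJ/cm2 (2 called) it was 39 with 1 fit of all libraries, 76 with DESeq2, 81 with the muscle covariate, 80 without the filter, 44 without the title ending, 0 in libraries titled R1 alone, 0 without the 2 libraries of high member share, and 0 to 79 when each animal was left out: 79 without replicate 1, 74 without replicate 3, and 0 without replicate 2 or 4 of the irradiated group or sham replicate 1, 3, 4 or 5. Where the main count was 0, it was 1 with DESeq2 at 6 h after 10 and after 20 mJ/cm2, and with 1 fit of all libraries 1 at 0 h after 20 mJ/cm2 and 18 at 96 h after 5 mJ/cm2. The cause of these moves was not tested. The log2 fold change of Rpl3l at 48 h after 40 mJ/cm2 changed sign with the muscle covariate, to 0.000191 with an edgeR adjusted p of 1. All 26 counts were recomputed under each setting that could be run. The settings without libraries under 1 M counts and without the libraries of high member share were chosen after seeing the data. No paired analysis was possible because the labels number the animals individually and the groups share no replicate numbers.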
